A study of Mus musculus with 2 samples.

Results

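The CC chemokines for monocytes and eosinophils were followed in skin wounds of neonatal mice with and without PU.1. The 10 genes were taken by symbol, without regard to their values, from the 24346 gene symbols listed in both libraries: Ccl2, Ccl3, Ccl4, Ccl5, Ccl6, Ccl7, Ccl8, Ccl9, Ccl11 and Ccl12. All 10 were listed in both libraries. Wounds of C57BL/6J pups were compared, 1 library from WT and 1 library from PU.1-/- (PU.1_KO in the labels), each harvested at 24 h. In the study's text the pups were 1 day old, were littermates and received a full-thickness incision in the dorsal skin, while the design text of the series calls the wounds excisional. How many pups each library holds, and which part of the Spi1 gene the PU.1-/- allele lacks, is not given in the sources used here. PU.1 is the transcription factor encoded by Spi1 and is needed to form myeloid cells, and the study describes PU.1-/- mice as lacking macrophages, neutrophils, mast cells and T cells.

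CC chemokines are small secreted proteins with a pair of adjacent cysteines. They bind G protein-coupled receptors of the CCR family on leukocytes and direct these cells along a gradient, and in a healing wound they bring in blood monocytes and other leukocytes. Some are made mainly by leukocytes themselves, whereas others are also induced in fibroblasts, endothelium and keratinocytes by inflammatory cytokines. Ccl2, Ccl7, Ccl8 and Ccl12 encode monocyte chemoattractant proteins, Ccl3 and Ccl4 encode macrophage inflammatory proteins, Ccl5 encodes RANTES, Ccl6 and Ccl9 encode ligands of CCR1, and Ccl11 encodes eotaxin, a ligand of the eosinophil receptor CCR3.

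Levels are in FPKM, fragments scaled to the exon length of the gene and to the mapped total, as the authors deposited them. FPKM are per length, so levels of different genes can be set side by side. There was 1 library per genotype, so there was no test and no spread between animals. Intervals are exact binomial (Clopper-Pearson) intervals at 95% on read numbers estimated from the FPKM, and they cover counting error only. A log2 ratio is PU.1-/- over WT with values below 0.1 FPKM raised to 0.1, and lower or higher genes are those past 2-fold on this scale. For a gene listed at 0 in 1 library no fold is given. A listed 0 in files without counts can also be a failed estimate. Of 77 ribosomal protein genes, 1, Rpl10l, was listed at 0 in both libraries, and the others were above 0 in both. Whether the 0 of Rpl10l is a failed estimate was not tested.

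Depth came to an estimated 13760000 fragments in WT and 15780000 in PU.1-/-. The targeted gene, Spi1 (chromosome 2, 91082390 to 91115756), had 35.4 FPKM in WT against 1.45 in PU.1-/-, so that the WT level was 24.3 times as high (interval 17.9 to 34.1). Markers of sex and of muscle also moved with genotype. Xist, which coats the inactive X, was listed at 0 in WT and had 9.48 FPKM in PU.1-/-, whereas the Y-linked Ddx3y, Eif2s3y, Kdm5d and Uty had 2.16 to 38.5 FPKM in WT and were all listed at 0 in PU.1-/-. Genotype and sex cannot be told apart in these libraries. The 8 skeletal muscle genes of a marker list summed to 8369 FPKM in WT and 14217 in PU.1-/-, led by Acta1 (3224 and 5955), Mylpf (1969 and 3113) and Tnnc2 (1179 and 1844), and their part in the results was not tested. The median log2 ratio of the 6538 genes of at least 10 FPKM in both libraries was -0.01.

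All 10 CC chemokines had a lower FPKM value in the PU.1-/- wound than in the WT wound, for Ccl5 within counting error. Of the 10, 8 were at least 2-fold lower, 0 were at least 2-fold higher, and 2, Ccl2 and Ccl5, differed by less than 2-fold. Over all listed genes, 4.34% were at least 2-fold lower and 2.32% at least 2-fold higher. The median log2 ratio of the 10 genes was -6.71, which lies between the values of Ccl8 and Ccl6, and the median of all listed genes was 0. The median of the 10 depends on the floor. With values below 1 FPKM raised to 1, Ccl4, listed at 0 in PU.1-/-, had -5.67 and lay between Ccl8 and Ccl6. The WT levels ran from 3.18 FPKM for Ccl5 to 444 FPKM for Ccl2, and 9 of the 10 genes had at least 10 FPKM there. In bulk tissue, fewer cells of a type and less RNA per cell cannot be told apart.

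**Figure D1:**
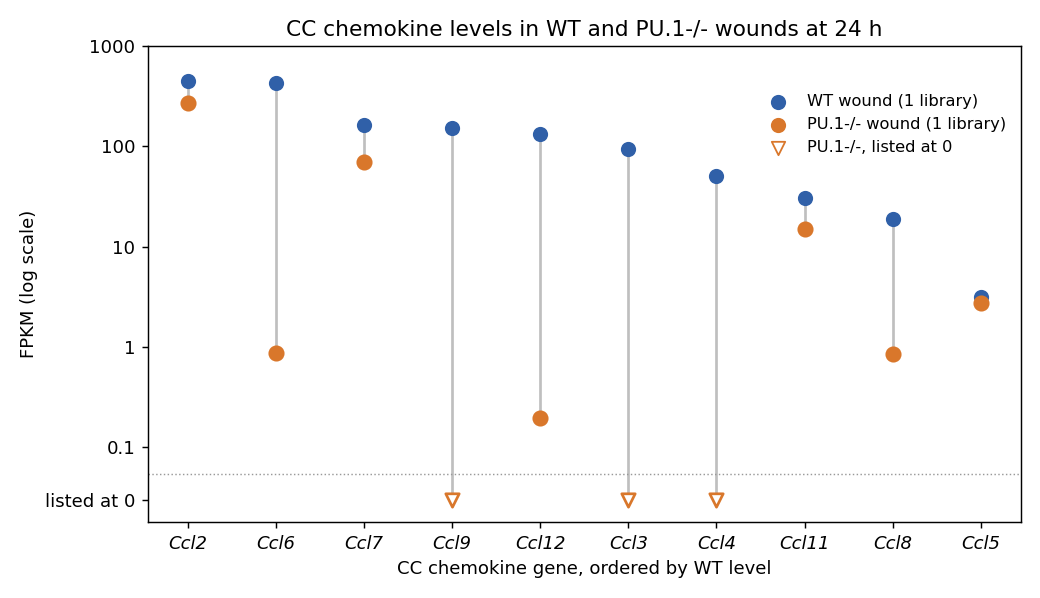
Level of each CC chemokine gene in FPKM (log scale) in the WT library (blue) and the PU.1-/- library (orange), ordered by WT level, with open triangles for genes listed at 0. Ccl2, Ccl7, Ccl11 and Ccl5 stay within 2.34-fold of the WT level, while the other 6 genes drop below 1 FPKM or are listed at 0.

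The size of the difference set the 10 genes apart in 2 sets. Ccl2, Ccl7, Ccl11 and Ccl5 kept between 42.8% and 87.1% of the WT level. Ccl3, Ccl4, Ccl6, Ccl8, Ccl9 and Ccl12 kept at most 4.52%, and Ccl3, Ccl4 and Ccl9 of these were listed at 0 in PU.1-/-. No member lay between 4.52% and 42.8%. These sets were drawn after the values were seen and are a description.

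Both sets were represented among the 4 monocyte chemoattractant protein genes. Ccl2, which encodes the main attractant of CCR2-bearing blood monocytes, had 444 FPKM in WT and 269 in PU.1-/-. It kept 60.6% of the WT level (interval 57.5 to 63.6), a log2 ratio of -0.72, and from about 3753 and 2607 reads this difference was larger than counting error. Ccl2 was the highest CC chemokine in both libraries, rank 215 of all genes in WT and rank 309 in PU.1-/-. Ccl7, a second ligand of CCR2, had 164 FPKM in WT against 70.3 in PU.1-/-, 42.8% of the WT level (interval 38.9 to 46.9).

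Ccl12 and Ccl8 behaved otherwise. Ccl12, the mouse chemokine also called MCP-5, had 133 FPKM in WT and 0.195 in PU.1-/-. The WT level stood on about 620 reads and the PU.1-/- level on about 1 read, so the WT level was 685 times that of PU.1-/- with a counting interval of 127 to 28173. Ccl12 ranked 686 in WT, close to Ccl7 at rank 563, and 14772 in PU.1-/-, where Ccl7 ranked 1265. Ccl8, which encodes MCP-2, had 18.7 FPKM in WT and 0.844 in PU.1-/-, 4.52% of the WT level (interval 1.16 to 11.6) from about 80 and 4 reads. The intervals of Ccl12 and Ccl8 did not overlap those of Ccl2 and Ccl7.

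Ccl3, Ccl4 and Ccl5 also divided. Ccl3, which encodes MIP-1alpha, had 93.1 FPKM in WT from about 726 reads and was listed at 0 in PU.1-/-. Ccl4, which encodes MIP-1beta, had 51.0 FPKM in WT from about 324 reads and was listed at 0 in PU.1-/-. At the depth of the PU.1-/- library, 3 reads would amount to 0.335 FPKM for Ccl3 and 0.412 FPKM for Ccl4. Ccl5, which encodes RANTES and is known as a product of T cells among others, was the lowest member in WT. Its level was 3.18 FPKM in WT against 2.77 in PU.1-/-, from about 15 reads in each library. The ratio was that of equal read numbers, with an interval of 39.7% to 191% of the WT level, which holds both equal levels and a 2-fold lower one, so no difference was detectable at this depth.

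Ccl6 and Ccl9, rodent CCR1 ligands whose genes have 4 exons where the other 8 have 3, were among the most abundant members in WT and below 1 FPKM or listed at 0 in PU.1-/-. Ccl6 had 429 FPKM in WT, next in order after Ccl2, and 0.871 FPKM in PU.1-/-. It kept 0.203% of the WT level (interval 0.118 to 0.324), from about 7327 and 17 reads. Ccl9 had 153 FPKM in WT from about 5922 reads and was listed at 0 in PU.1-/-, where 3 reads would amount to 0.0677 FPKM. Ccl9 has the longest transcript of the 10 genes, 3006 nt, and so the limit set by depth was lowest for it.

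Ccl11, the eotaxin gene, had 30.3 FPKM in WT and 15.1 in PU.1-/-, 49.8% of the WT level, from about 368 and 210 reads. The interval of 41.7% to 59.0% lay on both sides of the 2-fold line. The log2 ratio was -1.01, and it was -0.96 with both libraries scaled to the same FPKM sum, where Ccl11 no longer counted as lower and 7 of the 10 genes did.

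**Figure D2:**
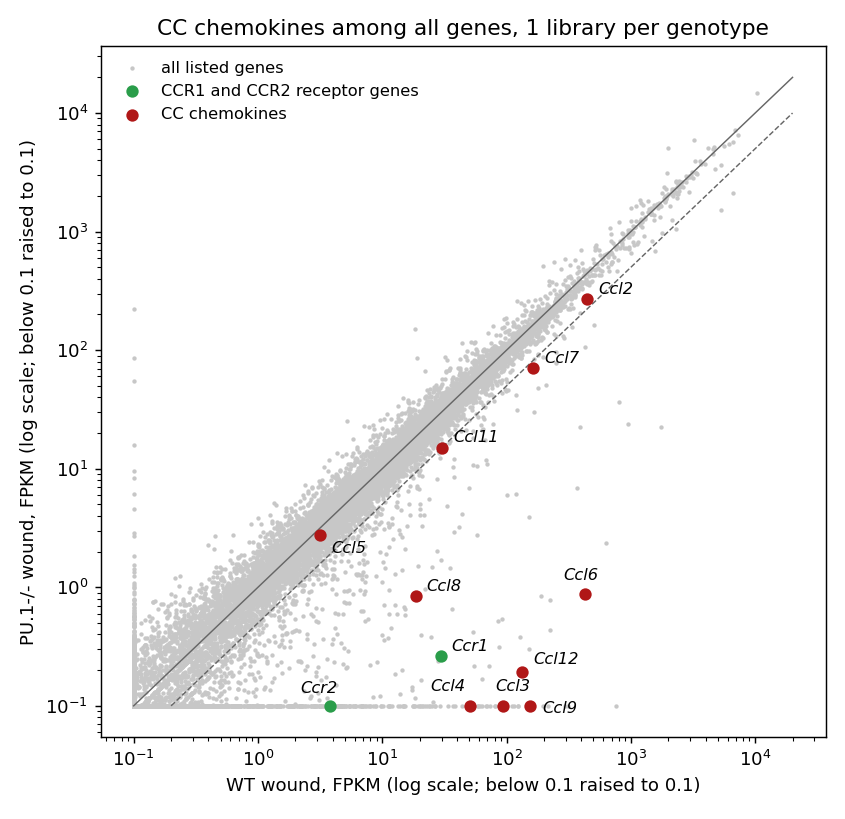
FPKM of every listed gene in the WT library (x axis) and the PU.1-/- library (y axis), both on log scales with values below 0.1 raised to 0.1, a solid line at equality and a dashed line at 2-fold lower in PU.1-/-. Ccl2 and Ccl5 (red) lie above the dashed line and Ccl11 on it, while Ccl3, Ccl4 and Ccl9 lie on the floor in the same row as the receptor gene Ccr2 (green).

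The reference promoters of 5 of the 6 genes below 5% of the WT level are printed here, because PU.1 binds DNA at a purine-rich sequence, the PU box. They are the 250 bases before the gene start in RefSeq on the GRCm38.p6 assembly, 5′ to 3′ in the direction of transcription and without any base of the transcript. Capitals mark GAGGAA, the PU box core, or AGGAAG, a core of sites for the Ets family to which PU.1 belongs, on either strand. The letters of both overlap and 1 stretch can hold both. They were chosen after the sequences had been seen. The regions are chr11:82101595-82101844 (plus strand) for Ccl12, chr11:82114935-82115184 (plus strand) for Ccl8, chr11:83593088-83593337 (minus strand) for Ccl6, chr11:83578637-83578886 (minus strand) for Ccl9 and chr11:83649379-83649628 (minus strand) for Ccl3.
Ccl12: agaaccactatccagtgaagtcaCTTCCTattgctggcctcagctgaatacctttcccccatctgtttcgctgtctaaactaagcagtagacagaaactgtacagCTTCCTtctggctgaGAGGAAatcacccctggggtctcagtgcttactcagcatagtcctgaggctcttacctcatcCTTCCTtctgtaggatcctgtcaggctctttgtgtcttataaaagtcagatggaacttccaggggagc
Ccl8: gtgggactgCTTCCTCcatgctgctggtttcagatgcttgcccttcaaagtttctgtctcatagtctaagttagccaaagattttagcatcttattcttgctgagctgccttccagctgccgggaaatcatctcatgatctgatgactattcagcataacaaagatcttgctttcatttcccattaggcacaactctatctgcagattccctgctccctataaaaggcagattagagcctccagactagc
Ccl6: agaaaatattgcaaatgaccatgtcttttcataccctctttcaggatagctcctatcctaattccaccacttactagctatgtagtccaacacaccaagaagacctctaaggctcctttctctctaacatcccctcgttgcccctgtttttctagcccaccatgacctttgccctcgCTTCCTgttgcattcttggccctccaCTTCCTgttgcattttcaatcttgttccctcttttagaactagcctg
Ccl9: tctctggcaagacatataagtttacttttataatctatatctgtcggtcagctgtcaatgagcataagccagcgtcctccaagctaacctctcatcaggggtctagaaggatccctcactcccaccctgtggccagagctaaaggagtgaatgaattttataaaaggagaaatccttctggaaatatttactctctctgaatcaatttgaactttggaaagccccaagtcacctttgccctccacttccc
Ccl3: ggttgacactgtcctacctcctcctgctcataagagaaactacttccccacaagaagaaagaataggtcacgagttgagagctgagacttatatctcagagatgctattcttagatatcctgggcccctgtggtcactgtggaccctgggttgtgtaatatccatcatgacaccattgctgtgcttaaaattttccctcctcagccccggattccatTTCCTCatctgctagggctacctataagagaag

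The Ccl12 promoter held 4 marked stretches, GAGGAA beginning 130 bases before the gene start and AGGAAG on the opposite strand at 227, 145 and 68 bases. The Ccl6 promoter held AGGAAG on the opposite strand at 73 and 47 bases. The Ccl8 promoter held 1 stretch with both motifs, 241 bases before the start, and the Ccl3 promoter held GAGGAA on the opposite strand at 33 bases. The Ccl9 promoter held neither. GAGGAA was found in 3 of the 5 promoters and in 23.3% of all 32851 promoters of this length, AGGAAG in 3 of 5 and in 29.5%, and either of them in 4 of 5 and in 39.2%. These matches are letters in a window and not sites.

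Other motifs were also looked for in the 5 promoters. The motifs differ in length and in their share of all promoters, so their counts cannot be ranked against each other. The NF-kB motif, GGG and TTTCC with 2 bases between, was found in that of Ccl9 alone, 35 bases before the start, and in 1.41% of all promoters. TGANTCA, a loose form of the AP-1 motif with any base in the middle, was found in 6.75% of all promoters. Among the 5 it was also found in that of Ccl9 alone, at 53 bases. The match there was TGAATCA, without the C or G that the usual AP-1 site has in the middle. The C/EBP motif TTGCNNAA and the STAT motif, TTC and GAA with 4 bases between, were found in 0 of the 5, and in 9.56% and 5.85% of all promoters. TATAAA was found in those of Ccl8, Ccl9 and Ccl12, and in 12.4% of all. In Ccl12 and Ccl8 it began 31 and 32 bases before the start. The promoter set used here held no entry for Ccl2, Ccl4, Ccl5, Ccl7 and Ccl11. The promoters shown are thus all of genes of larger difference, and those of smaller difference could not be compared.

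The makeup of the CC chemokine pool differed between the wounds. The FPKM of the 10 genes summed to 1520 in WT and 359 in PU.1-/-, 23.6% of the WT sum. Ccl2 made up 29.2% of the pool in WT and Ccl6 28.2%, followed by Ccl7 with 10.8%, Ccl9 with 10.1% and Ccl12 with 8.77%. In PU.1-/- Ccl2 made up 74.9%, Ccl7 19.6% and Ccl11 4.20%. Ccl2, Ccl7 and Ccl11 together went from 639 FPKM in WT to 354 FPKM in PU.1-/-, which was 42.0% of the pool in WT and 98.7% in PU.1-/-. Ccl3, Ccl4, Ccl6, Ccl8, Ccl9 and Ccl12 together went from 878 to 1.91 FPKM, 57.8% of the pool in WT and 0.532% in PU.1-/-.

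Counted in reads instead of FPKM, the pool looked different in WT, since Ccl6 and Ccl9 have longer transcripts than Ccl2. Ccl6 then held 35.7% of the reads of the 10 genes in WT, Ccl9 28.9% and Ccl2 18.3%. In PU.1-/- the first 3 places were as for FPKM, with 74.0% for Ccl2, 18.9% for Ccl7 and 5.97% for Ccl11.

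**Figure D3:**
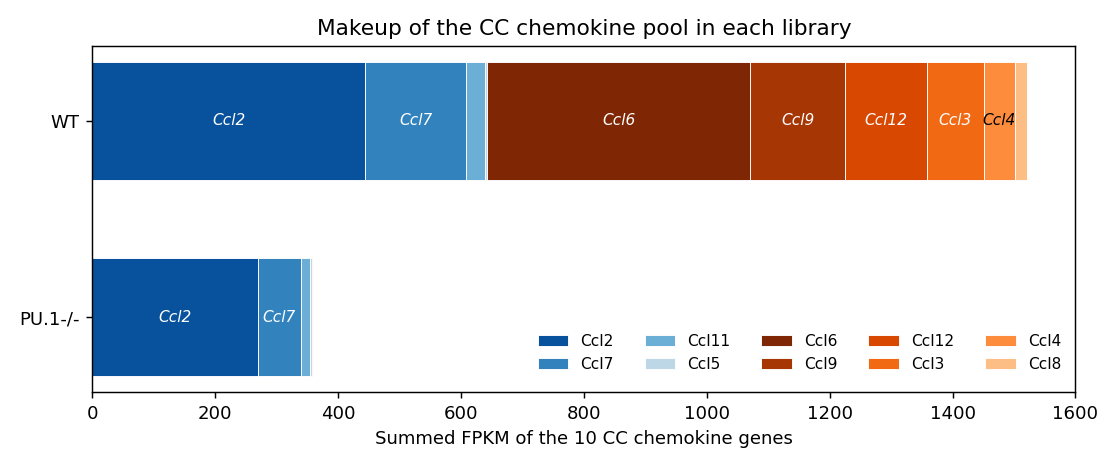
Summed FPKM of the 10 CC chemokine genes in the WT and PU.1-/- libraries, each bar divided by gene (blue shades for Ccl2, Ccl7, Ccl11 and Ccl5, brown and orange shades for the other 6). The WT bar reaches 1520 FPKM with blue and orange parts, and the PU.1-/- bar reaches 359 FPKM and is almost wholly blue.

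The 10 genes lie in 2 groups on chromosome 11 of mm10, 1.41 Mb apart, and both groups held genes of small and of large difference. The first group spans 81.2 kb (82035571 to 82116799) and holds Ccl2, Ccl7, Ccl11, Ccl12 and Ccl8 in that order, all on the plus strand. Its FPKM sum was 791 in WT and 355 in PU.1-/-, 45.0% of WT, and 4 of its 5 genes were at least 2-fold lower. Ccl2 (82035571 to 82037453), Ccl7 (82045712 to 82047525) and Ccl11 (82057823 to 82062955) lie together at 1 end and kept 42.8% to 60.6% of the WT level. Ccl12 (82101845 to 82103400) and Ccl8 (82115185 to 82116799) lie together at the other end and kept 0.146% and 4.52%.

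The second group spans 139 kb (83525778 to 83664683) and holds Ccl5, Ccl9, Ccl6, Ccl3 and Ccl4. Ccl4 is on the plus strand and the other 4 genes on the minus strand. Its FPKM sum was 730 in WT and 3.64 in PU.1-/-, 0.499% of WT, and Ccl5 (83525778 to 83530518) at its edge accounted for most of what was left, with 2.77 FPKM. Ccl9 (83572919 to 83578636), Ccl6 (83587882 to 83593087), Ccl3 (83647844 to 83649355) and Ccl4 (83662584 to 83664683) were all at least 2-fold lower. RefSeq extends Ccl4 by a predicted model from 83648624 that overlaps Ccl3 on the opposite strand, and whether the authors counted by strand is not given in the sources used here. Both genes were listed at 0 in PU.1-/-.

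Other genes within 50 kb of the second group did not all follow it. Wfdc17, which encodes a small secreted protein of macrophages, had 152 FPKM in WT and 3.94 in PU.1-/-. Its neighbour Wfdc18 had 3.49 FPKM in WT against 3.99 in PU.1-/-. E230016K23Rik, whose annotated span includes Ccl6, had 0.215 and 0.391 FPKM, and Heatr9 was listed at 0 in both.

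**Figure D4:**
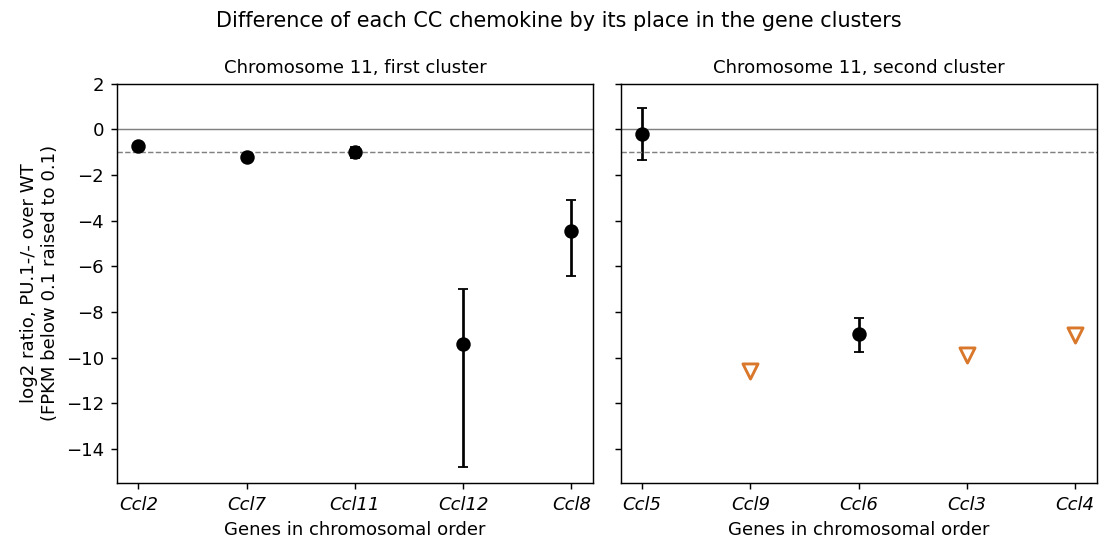
Log2 ratio of PU.1-/- over WT (values below 0.1 FPKM raised to 0.1) for the 5 genes of each group on chromosome 11, in chromosomal order, with bars for the 95% counting interval and a dashed line at 2-fold lower. Open triangles are genes listed at 0 in PU.1-/-, whose height is set by the value of 0.1 and is no measured ratio; Ccl12 and Ccl8 lie far below Ccl2, Ccl7 and Ccl11, and Ccl5 lies apart from its 4 neighbours.

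Related chemokines can share reads, which was looked at for the 75-base reads of these libraries. None of the stretches of 75 nt in any of the 10 transcripts, 0 of 437 in Ccl8 up to 0 of 2932 in Ccl9, occurred in an annotated transcript of another gene. Only GENCODE transcripts in their own direction were searched. The opposite strand and the predicted RefSeq model of Ccl4 that overlaps Ccl3 were not covered. The longest run shared between members was 25 nt, between Ccl6 and Ccl9, then 23 nt between Ccl2 and Ccl7 and 21 nt between Ccl11 and Ccl12.

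The genes closest in pattern to a member were those with the smallest distance over the log2 levels of both libraries. With only 2 libraries such a likeness is a description. For Ccl3, Ccl4 and Ccl9 and the genes closest to them, the PU.1-/- value was 0 and raised to 0.1 alike, so their distance rests on the WT level alone. Timp1, an inhibitor of matrix metalloproteinases, was closest to Ccl2, at 436 FPKM in WT and 261 in PU.1-/- (distance 0.05), followed by Sprr2d, a cornified envelope gene, at 405 and 327 FPKM. Gstz1 was closest to Ccl11, with 30.5 and 14.8 FPKM (distance 0.03), followed by the class I histocompatibility gene H2-L with 29.3 and 15.3 FPKM. Ucp2 was closest to Ccl7, with 165 and 84.4 FPKM, followed by H2-D1 with 179 and 90.6 FPKM.

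The 6 members of larger difference had other neighbours in level, as they must, since neighbours were picked by the same levels. C1qa, a complement gene of macrophages, was closest to Ccl3, with 80.6 FPKM in WT and listed at 0 in PU.1-/-, followed by the mast cell protease gene Mcpt4. Coro1a, an actin-binding protein of leukocytes, was closest to Ccl4, with 53.2 FPKM in WT and also listed at 0, followed by Lilrb4a with 53.7 FPKM in WT. Samsn1 was closest to Ccl8, with 22.0 and 0.960 FPKM, followed by Csf1r, the receptor of macrophage colony-stimulating factor, with 15.0 and 0.684 FPKM. The genes closest to Ccl12 were the mast cell gene Cpa3, with 150 and 0.303 FPKM (distance 0.66), and the platelet gene Ppbp, with 72.0 and 0.217 FPKM (distance 0.90). Neither lay near Ccl12, whose PU.1-/- level rests on about 1 read. No gene lay near Ccl6 either. The closest, the mast cell tryptase gene Tpsb2, had 224 and 0.788 FPKM, a distance of 0.95. The Fc receptor subunit gene Fcer1g came next with 190 and 0.847 FPKM. The closest to Ccl9 were the small nucleolar RNA gene Snora65 and C1qb, both listed at 0 in PU.1-/- with 124 and 123 FPKM in WT.

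Of 11 CC receptor genes listed, 5 were at least 2-fold lower, 0 higher and 6 neither, and 3 of the 5 lower ones reached 1 FPKM. Ccr1, whose receptor binds the products of Ccl3, Ccl5, Ccl6 and Ccl9 among others, had 29.6 FPKM in WT and 0.263 in PU.1-/-. Ccr2 had 3.77 FPKM in WT and was listed at 0 in PU.1-/-. Ccr7 and Ccr8, also counted as lower, had only 0.294 and 0.229 FPKM in WT. Ccr3, the eotaxin receptor gene, had 0.212 FPKM in WT and 0.164 in PU.1-/-, levels too low to compare. Ccr4 had 0.503 and 0.633 FPKM.

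Of 7 genes of signalling behind the receptors, 5 were at least 2-fold lower and 0 higher. Rac2, a GTPase of blood cells, had 17.7 FPKM in WT and was listed at 0 in PU.1-/-, as was Rgs1 with 1.93 FPKM in WT. Dock2 had 2.98 and 0.0101 FPKM, Pik3cg 2.16 and 0.429 FPKM, and Arrb2, a beta-arrestin, 16.7 and 4.05 FPKM. Gnai2, the widely used inhibitory G protein subunit, had 179 and 150 FPKM, and Pik3r5 had 4.26 and 3.36 FPKM.

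Atypical receptors take up chemokines without signalling to migration. Of 4 genes, 0 were at least 2-fold lower and 1 was higher, Ackr2, the scavenger of inflammatory CC chemokines, whose level was 0.463 FPKM in WT against 1.47 in PU.1-/-. Ackr1, a receptor of venular endothelium and red cells, had 9.45 and 15.0 FPKM, and Ackr4 had 11.2 and 12.2 FPKM. Ccrl2, which binds chemerin, had 0.789 and 0.444 FPKM.

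The other CC ligands did not move as 1 group. Of 14 listed genes, 2 were at least 2-fold lower and 2 higher, 7 reached 1 FPKM in either library, and the median log2 ratio was 0. Ccl24, a second eotaxin, had 3.14 FPKM in WT and Ccl17, a CCR4 ligand, had 1.92 FPKM, and both were listed at 0 in PU.1-/-. Ccl21a, the lymphatic CCR7 ligand, had 9.61 FPKM in WT and 25.8 in PU.1-/-, and Ccl25 had 0.511 and 1.19 FPKM. Ccl19, the other CCR7 ligand, had 6.26 and 12.0 FPKM and so lay just under the 2-fold line. Ccl27a, the keratinocyte chemokine, had 17.4 and 20.8 FPKM. The 14 genes summed to 40.5 FPKM in WT and 62.0 in PU.1-/-, while the 10 CC chemokines for monocytes and eosinophils summed to 1520 and 359.

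Cytokines known to induce CC chemokines differed in level one by one. Of 13 listed genes, 4 were at least 2-fold lower and 0 higher, with a median log2 ratio of -0.55. Il1b, known as a product of myeloid cells, had 63.9 FPKM in WT against 0.169 in PU.1-/-, and Tnf had 6.40 and 1.31 FPKM. The other 2 lower genes, Il13 and Il17a, had 0.218 and 0.526 FPKM in WT and were listed at 0 in PU.1-/-. Il33, an alarmin of stromal and epithelial cells, had 101 and 53.8 FPKM, Il6 had 70.3 and 50.4 FPKM, and Il1a had 16.3 and 11.1 FPKM. Ifng and Il5 were listed at 0 in both libraries.

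Transcription factors that act on CC chemokine genes in many cell types, listed with the inhibitor gene Nfkbia, had like mRNA levels in both wounds. The activity of these factors was not measured. Of 12 listed genes, 0 were at least 2-fold lower or higher, and the log2 ratios ran from -0.20 to 0.43. Nfkbia, the inhibitor and target of NF-kB, had 198 FPKM in WT and 195 in PU.1-/-. Cebpb had 122 and 124 FPKM, and Fos had 39.4 and 53.2 FPKM.

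Markers of the cells that CC chemokines attract, or that make them, moved with genotype, and their part in the chemokine values was not tested. Of 14 monocyte and macrophage genes, 12 were at least 2-fold lower and 0 higher, and 6 were listed at 0 in PU.1-/-. C1qb had 123 FPKM and C1qc 110 FPKM in WT and both were listed at 0, and Cd14, which other cell types can also express, had 101 and 5.97 FPKM.

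Eosinophils, the targets of eotaxin, left little signal in either library. Of 10 eosinophil genes, 5 (Epx, Prg3, Ear1, Ear6 and Il5ra) were listed at 0 in both, and 1 had at least 1 FPKM, Ear2, with 1.86 FPKM in WT and listed at 0 in PU.1-/-. Ccr3 and Siglecf, next in level, had 0.212 and 0.157 FPKM in WT. The list summed to 2.41 FPKM in WT against 0.278 in PU.1-/-. Ccl11, at 30.3 and 15.1 FPKM, thus stood beside eosinophil markers of at most 1.86 FPKM in WT and at most 0.164 FPKM in PU.1-/-.

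The lists of other leukocytes were lower too, whereas the platelet list had a median log2 ratio of -0.04. Of 11 neutrophil genes, 9 were at least 2-fold lower, and the sum went from 12589 to 3676 FPKM. Ngp, a granule protein gene, had 311 FPKM in WT and was listed at 0 in PU.1-/-, while S100a8 and S100a9, which keratinocytes of wounded skin also express, went from 6600 to 2129 FPKM and from 5311 to 1516 FPKM. Of 10 mast cell genes, 9 were lower and the sum went from 752 to 15.5 FPKM, with 223 and 0.436 FPKM for the chymase gene Cma1. Of 10 genes of T and NK cells, 6 were lower, all 10 were listed at 0 in PU.1-/- and the sum in WT was 6.55 FPKM, with at most 2.06 FPKM for Gzma and then 1.24 for Cd3g and 1.20 for Nkg7. Of 6 platelet genes, 2 were lower, Pf4 with 635 and 2.35 FPKM and Ppbp with 72.0 and 0.217 FPKM, whereas Gp1bb had 5.25 and 4.99 FPKM and Itga2b had 3.19 and 3.83 FPKM.

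The lists of fibroblasts, endothelium and keratinocytes lay near equal levels, unlike that of skeletal muscle, with a median log2 ratio of 0.78. Of 10 fibroblast genes 1 was at least 2-fold lower, Pi16, at 19.9 FPKM in WT and 8.79 in PU.1-/-, and the median log2 ratio of the list was 0.26. Col3a1, Dcn and Col1a2 had 1042, 690 and 373 FPKM in WT and 1110, 959 and 406 FPKM in PU.1-/-. Of 10 endothelial genes 1 was higher, Vwf, with 2.82 and 5.90 FPKM, and the median was 0.15. Pecam1, Cdh5 and Cldn5 had 65.3, 33.8 and 33.2 FPKM in WT and 78.7, 41.8 and 27.9 FPKM in PU.1-/-. Of 10 keratinocyte genes 0 were lower or higher, with a median of 0.20. Krt14, Krt10 and Krt1 had 4659, 2291 and 1378 FPKM in WT and 5195, 2602 and 1820 FPKM in PU.1-/-. Ccl2, Ccl7 and Ccl11, with log2 ratios of -0.72, -1.22 and -1.01, thus lay below the medians of these 3 lists and above the median of -7.06 of the monocyte and macrophage list.

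**Figure D5:**
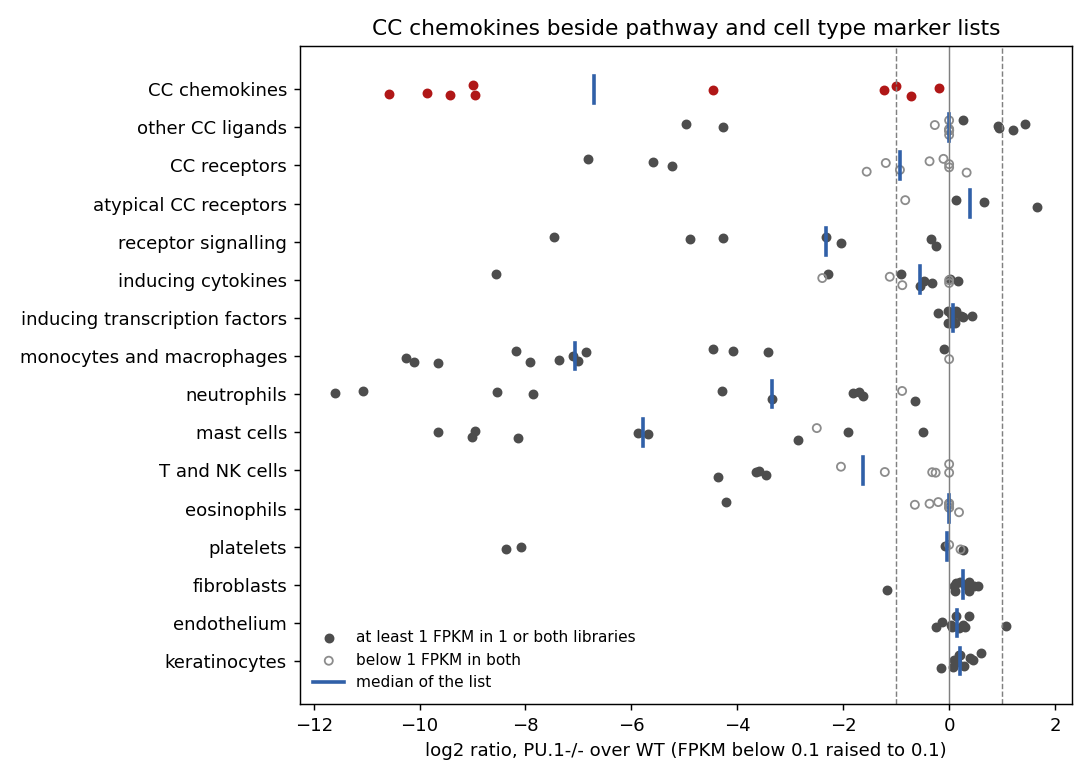
Log2 ratio of PU.1-/- over WT (values below 0.1 FPKM raised to 0.1) for each gene of the CC chemokines (red) and of 15 lists of pathway and cell type genes, with a blue bar at each list's median, dashed lines at 2-fold lower and higher, and open points for genes below 1 FPKM in both libraries. The CC chemokines run from -10.58 to -0.20, and the median of the macrophage genes is -7.06. The medians of the fibroblast, endothelial and keratinocyte lists are 0.15 to 0.26, and single genes of these lists run from -1.18 to 1.06.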

How the data were processed

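Total RNA of skin wounds was made into stranded mRNA libraries and sequenced from 1 end with reads of 75 bases. The authors mapped the reads to mm10 and deposited FPKM values calculated with Cuffnorm 2.2.1, per their methods, while the processing notes of the submitters name TopHat2 2.1.1, Bowtie2 2.2.8, SAMtools 0.1.18 and Cuffdiff 2.2.1. For the gene annotation, the sources used here give no name. The files hold no counts, so depth was estimated. Low FPKM values move in whole-read steps, and 458 genes below 2 FPKM had FPKM 1.15 times higher in WT (within 0.001), the ratio of equal read numbers. Fitting these steps with GENCODE M21 transcript lengths (23016 symbols matched) placed 82.8% of 958 WT values and 83.7% of 937 PU.1-/- values below 6 reads within 0.15 of a whole read. Effective length was taken as transcript length less 200 nt, so read numbers are estimates.

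Groups came from the genotype labels. The 2-fold rule with values below 0.1 raised to 0.1 is that of earlier work on these files, which chose it to match fold changes printed with the paper. The members, pathway lists and marker lists were chosen with earlier results of these data known. Named were all members, Spi1, the 3 genes of highest FPKM in each list, list genes that a count of 5 or fewer needs, and the 2 nearest genes in level of each member of at least 10 FPKM in WT. Il1a, Pik3r5, Itga2b, Ccr4, Ccrl2, Rpl10l and the neighbours of the clusters on chromosome 11 fall outside this rule and were named after their values were seen. Coordinates are those of GENCODE on GRCm38, the assembly of mm10, and sequences are from RefSeq tables on GRCm38.p6, which matched 5 members. Some genes of the lists are not reported here, and other data types of the paper were not used here. The functions were tested on simulated data. The software was scipy 1.17.1, numpy 2.4.6, matplotlib 3.10.9 and pandas 2.3.3 under Python 3.11.15.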

Additional observations from a re-analysis of the deposited data

How the results depend on the processing

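No paired analysis was possible because each genotype had 1 library. The number of CC chemokines at least 2-fold lower was 8 or 7 under the 7 other treatments of low values and scaling, with Ccl11 the gene that moved: it no longer counted with a pseudocount of 1 FPKM, with the same FPKM sum, or with equal upper quartiles (log2 ratios -0.96, -0.96 and just above the line). The number was 9 at a fold of 1.5, where Ccl2 counted too, and 6 at a fold of 4. All 10 genes kept a lower level under these 7 treatments. Scaling moved log2 ratios by at most 0.05. The log2 ratio of Ccl6 ran from -7.84 to -8.94 and that of Ccl12 from -6.81 to -9.42, both closest to 0 with a pseudocount of 1 FPKM. The number of all genes at least 2-fold lower, 1057, depended more on these choices. It was 463 with values below 1 FPKM raised to 1, 1778 with a floor of 0.01 FPKM, 461 with a pseudocount of 1 FPKM, 1867 at a fold of 1.5, 533 at a fold of 4, and 589 or 306 among genes of at least 1 or 5 FPKM in 1 or both libraries, where fewer genes were counted. Of 187 counts of the pathway and marker lists under these alternatives, 165 were within 1.5 times the reported count. A count of 0 that stayed 0 was taken as within. This was so at every setting for the lists of inducing transcription factors, endothelium, keratinocytes and skeletal muscle. Depth limits Ccl5 most, with about 15 reads in each library, and the PU.1-/- level of Ccl12, with about 1 read. With 1 library per genotype, no value here has a replicate check.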
